A study of Mus musculus with 24 samples.

Results

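Infarcted hearts that carried an activating PI3K transgene were set against infarcted hearts that carried an inhibiting one, gene by gene over the whole array. The groups were taken from the array titles: 4 arrays of caPI3K MI hearts and 4 arrays of dnPI3K MI hearts, 8 of the 24 arrays of the series. caPI3K mice carry a constitutively active PI3K transgene and dnPI3K mice a dominant negative one. The labels place both transgenes in the heart, without naming the promoter. Other organs of the animals were not measured here. All mice were FVB/N. They had a myocardial infarction (MI) or a sham operation at 4 months of age, and whole hearts were taken 8 weeks later. Nontransgenic (Ntg) hearts after MI and the sham-operated hearts of both transgenic lines, 4 arrays each, served for comparison. A tag of the caPI3K MI samples is headed caPI3K-sham, but the entry under it, the title and the description all say MI, so they were used as MI. Hearts were processed individually, but no label says that every array is another animal. The p-values here speak only for the spread from array to array, which may be technical in part. Neither sex nor infarct size is stated in the labels.

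PI3K is a lipid kinase that insulin and insulin-like growth factor receptors switch on in heart muscle through adaptor proteins of the IRS family. Its lipid product recruits the kinase Akt, which promotes protein synthesis through mTOR and keeps FoxO transcription factors out of the nucleus. In the heart this pathway is known for exercise-type growth, and mice with raised or lowered cardiac PI3K activity are used as models of hearts that withstand or succumb to overload and infarction.

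The arrays measured heart tissue in both groups. The muscle genes *Myh6*, *Myl2*, *Myl3*, *Tnnt2*, *Tnni3*, *Actc1*, *Ryr2* and *Pln* ranked at or above the 93.7th percentile of tested genes on each of the 8 arrays. Median signal was 105 to 115 on 7 of the 8 arrays and 150 on dnPI3K MI replicate 1. That array correlated with the other 7 at 0.917 to 0.923 over all tested genes, while the remaining dnPI3K MI pairs correlated at 0.959 to 0.96 and caPI3K MI pairs at 0.958 to 0.964. *Xist*, the RNA of the inactive X chromosome, lay between 12.73 and 13.61 on the 8 MI arrays, and Y-linked genes were low there. The sham comparison is less even, because Y-linked genes were high on 3 of the 4 arrays of caPI3K sham hearts and low on all dnPI3K sham arrays.

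Levels are log2 of the signal plus a pseudocount of 11.23, and differences are caPI3K MI minus dnPI3K MI on that scale. A difference of a dim gene is therefore understated. A gene is called at an adjusted p below 0.05 in limma, with Benjamini-Hochberg adjustment over all 14763 genes tested. By that rule 621 genes, 4.21% of those tested, differed between the infarcted hearts. Of these 430 (2.91%) were higher in caPI3K MI and 191 (1.29%) were higher in dnPI3K MI. The median called difference was 0.46 in the former direction and -0.62 in the latter. Differences above 1 log2 unit, in either direction, numbered 62 and 47. The 4 and 4 arrays did not overlap for 839 genes with caPI3K MI higher (5.68%) and 639 with dnPI3K MI higher (4.33%), among them 388 and 173 of the calls. Without dnPI3K MI replicate 1 the count of calls was 477, and without caPI3K MI replicate 2 it was 388. When each array was instead centred on its median, the median difference of all genes moved to 0.13 and the calls split into 711 higher in caPI3K MI and 75 higher in dnPI3K MI. In whole hearts, fewer cells of a type and less RNA per cell cannot be told apart. Each count of called list members below is to be read beside the 4.21% called over all tested genes.

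**Figure D1:**
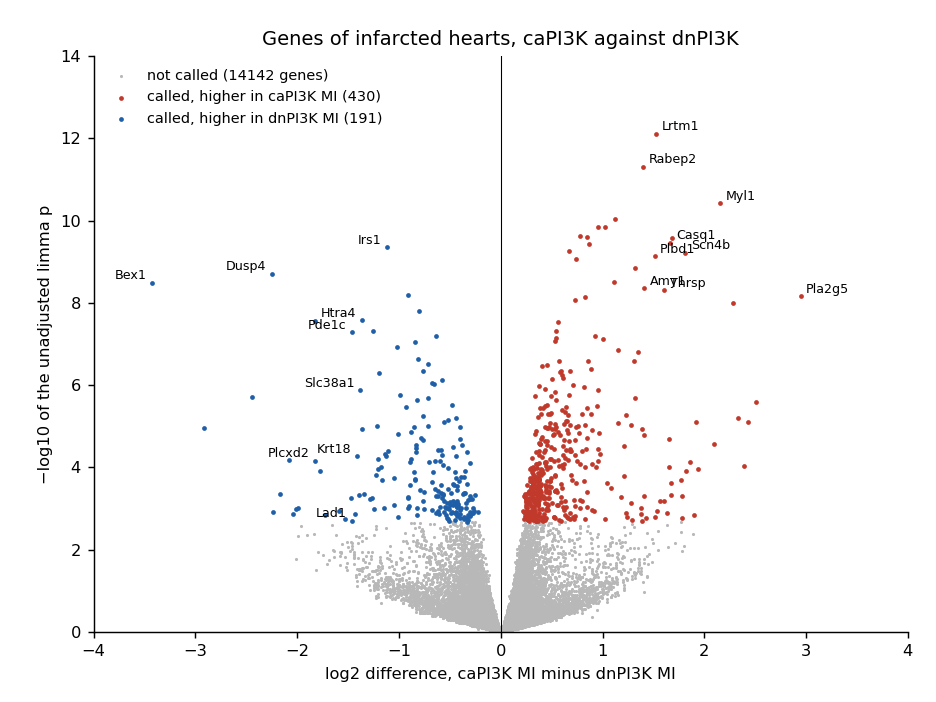
The plot sets the log2 difference, caPI3K MI minus dnPI3K MI (horizontal axis), against −log10 of the unadjusted limma p (vertical axis) for the 14763 tested genes. Red points are the 430 genes called higher in caPI3K MI, blue points the 191 called higher in dnPI3K MI and grey points the rest; *Pla2g5* and *Bex1* lie farthest out among the labelled genes.

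The 12 largest calls in each direction were picked among genes whose arrays did not overlap and whose higher group reached the median level of tested genes, so the lack of overlap in those 24 follows from the choice. *Pla2g5*, a secreted phospholipase that releases fatty acids from membranes, stood at 9.42, 9.26, 9.59 and 9.22 on the caPI3K MI arrays and at 5.05, 6.36, 6.91 and 7.39 on the dnPI3K MI arrays. All caPI3K MI arrays were above all dnPI3K MI arrays, and the dnPI3K MI arrays were widely spread. The difference was 2.95 (SE 0.35, 7.7-fold, limma adjusted p = 4.16e-06). *Myl1*, a myosin light chain of fast skeletal muscle, read 14.87, 15.02, 14.76 and 15.08 in caPI3K MI and 12.69, 12.67, 12.35 and 13.4 in dnPI3K MI hearts. The groups were apart by more than the range within either of them. Its difference was 2.16 (SE 0.2, 4.45-fold, limma adjusted p = 1.88e-07).

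*Casq1*, the calcium-binding protein of the skeletal muscle sarcoplasmic reticulum, had levels of 11.85, 12.07, 11.62 and 11.56 in caPI3K MI hearts and 10.52, 10.03, 9.9 and 9.99 in dnPI3K MI hearts. Each caPI3K MI array exceeded each dnPI3K MI array, and the difference was 1.67 (SE 0.17, 3.17-fold). *Lrtm1*, a leucine-rich repeat membrane protein, had the smallest p of all genes (limma adjusted p = 1.13e-08). It read 11.96, 12.45, 12.25 and 12.14 against 10.68, 10.54, 10.47 and 11.01, a difference of 1.53 (SE 0.12). These groups were again fully apart. The other genes among these 12 were *Scn4b*, *Ociad2*, *Cyp2b10*, *Igsf1*, *Thrsp*, *Plbd1*, *Amy1* and *Rabep2*, at 1.40 to 1.81. Among these, *Scn4b* is a beta subunit of voltage-gated sodium channels and *Thrsp* a thyroid-hormone-responsive gene of fat synthesis. The probe set used for *Rabep2* differed by 1.40 and its other kept probe set by -0.13, so the transcript behind the call is uncertain.

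*Myl1* and *Casq1* belong to a list of skeletal-type muscle genes. Of 22 tested skeletal-type muscle genes, 3 were called, *Myl1*, *Casq1* and *Mybpc2*, all higher in caPI3K MI, and the list's median difference was 0.08 against -0.01 over all tested genes. A further 10 listed genes, among them the fast myosins *Myh1* and *Myh4* and the fast troponins *Tnnt3* and *Tnnc2*, were below the filter on low signal. Of 8 skeletal muscle tissue markers 2 were called, *Myl1* and *Mybpc2*, while 4 differences were above 0 and 4 below, from -1.17 to 2.16 with a median of 0.03. Their summed signal, to which *Myl1* contributes up to 34500 on a caPI3K MI array, was 59146 to 72427 on caPI3K MI and 36284 to 38835 on dnPI3K MI arrays. The part of skeletal muscle tissue in the difference was not tested.

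The largest call in the opposite direction was *Bex1*, a small adaptor protein of the Bex and Tceal family best known from neurons. Its level was 13.02, 13.6, 12.72 and 12 in dnPI3K MI and 9.31, 9.24, 9.35 and 9.72 in caPI3K MI hearts. The lowest dnPI3K MI array was still far above the highest caPI3K MI array. The difference was -3.43 (SE 0.39, 10.8-fold, limma adjusted p = 2.43e-06). The family shared this direction in part: 4 of its 8 tested members were called, *Bex1*, *Tceal7*, *Tceal8* and *Tceal9*, all higher in dnPI3K MI, with a median of -0.61 over the 8. *Tceal7* read 9.87, 9.21, 7.6 and 7.35 in dnPI3K MI and 5.55, 6.51, 6.06 and 6.12 in caPI3K MI hearts. The dnPI3K MI arrays split into a higher and a lower pair, both above all caPI3K MI arrays, and the difference was -2.45 (SE 0.4, limma adjusted p = 0.000388). *Tceal8* differed by -0.85 (SE 0.12) and *Tceal9* by -0.49 (SE 0.12). The family count was 3 or 4 when any of the 8 arrays was left out.

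*Dusp4*, a phosphatase that inactivates MAP kinases, was also high in dnPI3K MI hearts. It stood at 9.35, 9.24, 8.75 and 8.83 there and at 6.03, 6.81, 7.27 and 7.06 in caPI3K MI hearts, with no overlap. The difference was -2.25 (SE 0.25, 4.76-fold, limma adjusted p = 1.59e-06). Of 31 phosphodiesterases and kinase phosphatases 3 were called, all higher in dnPI3K MI: *Dusp4*, *Pde1c* at -1.46 (SE 0.19) and *Pde8a* at -0.60 (SE 0.13). *Pde1c* and *Pde8a* break down cyclic nucleotides, the second messengers of adrenergic signalling. The list's median was -0.05. The other genes among the 12 picked in this direction were *Tmem100*, *Plcxd2*, *Chil1*, *Lad1*, *Krt18*, *Slc38a1*, *Gcnt1*, *Htra4* and *Tac1*, at -1.25 to -1.83. The probe set used for *Tac1*, the precursor of substance P, differed by -1.25 and its other kept probe set by 1.37, so its direction is uncertain. *Lad1* lost its call in 14 of 19 alternative settings.

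**Figure D2:**
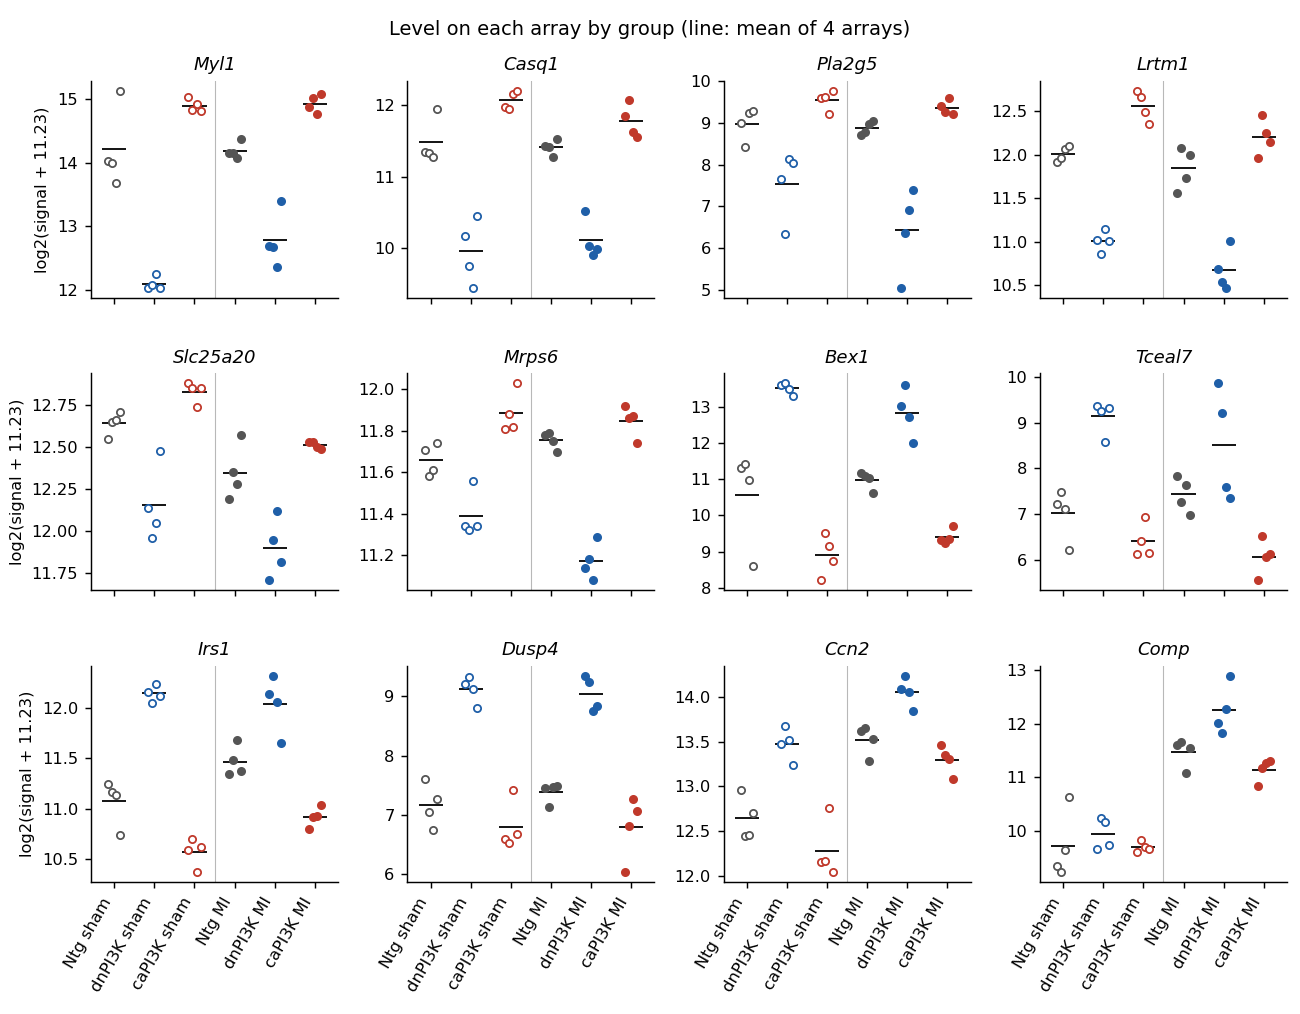
Each panel plots the log2 level of a gene on each array, in the 6 groups named on the horizontal axis, with open circles for sham, filled circles for MI and a line at the mean of 4 arrays. In the top row and for *Slc25a20* and *Mrps6* the caPI3K MI arrays lie above the dnPI3K MI arrays, and in the other panels they lie lower; for *Bex1* the Ntg MI arrays, at 10.62 to 11.17, lie between both.

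No difference was called in the transcripts of the kinase itself. *Pik3ca*, the catalytic subunit p110 alpha, read 10.44, 10.67, 10.53 and 10.54 in caPI3K MI and 10.31, 10.19, 10.67 and 10.44 in dnPI3K MI hearts, and *Pik3r1*, the p85 alpha regulatory subunit, differed by 0.27 (SE 0.16, limma adjusted p = 0.421). The sources used here do not say which sequence the transgenes encode or whether these probe sets read it, so neither gene checks the genotype. Of 45 tested genes of the PI3K pathway 6 were called (13.3%, beside 4.21% of all tested genes). Of these 4 were higher in caPI3K MI and 2 higher in dnPI3K MI, and the list's median was -0.08.

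The 2 pathway genes higher in dnPI3K MI hearts were its entry points. *Irs1*, the adaptor that docks PI3K to the insulin and IGF1 receptors, stood at 12.14, 12.32, 12.06 and 11.65 in dnPI3K MI and at 10.8, 10.92, 10.93 and 11.04 in caPI3K MI hearts. All dnPI3K MI arrays were above all caPI3K MI arrays, and the difference was -1.12 (SE 0.12, 2.17-fold, limma adjusted p = 5.42e-07). *Igf1r*, the receptor of insulin-like growth factor 1, read 10.27, 10.58, 10.4 and 10.02 against 9.43, 9.9, 9.37 and 9.51 in the same order. The groups did not overlap, and the difference was -0.76 (SE 0.15, limma adjusted p = 0.00213). The other kept probe sets of *Igf1r* differed by -0.39, -0.37, -0.02 and -0.94, and with all averaged it was not called. *Irs2*, the sister adaptor, read 8.44, 8.21, 6.81 and 6.27 against 6.34, 6.31, 4.92 and 4.85. It was dim, its groups overlapped, and its difference of -1.83 (SE 0.58) was not called (limma adjusted p = 0.0771).

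On the other side, *Grb14*, an adaptor that binds the insulin receptor and restrains its kinase, was higher in caPI3K MI hearts. Its levels were 12.85, 13.01, 13 and 12.84 there and 11.96, 11.78, 12.03 and 12.12 in dnPI3K MI hearts, without overlap. The difference was 0.95 (SE 0.09, limma adjusted p = 3.5e-07). The related *Grb10* differed by 0.30 (SE 0.08), the cap-binding translation factor *Eif4e* by 0.46 (SE 0.12) and the IGF-binding *Igfbp5* by 0.63 (SE 0.18). *Igfbp5* lost its call in 9 of 19 alternative settings and *Grb10* in 8. The ligand *Igf1* differed by 0.04 (SE 0.16) and *Pik3ip1*, a FoxO-responsive inhibitor of PI3K, by 0.04 (SE 0.11), and neither was called.

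Of 34 tested FoxO factors and target genes 2 were called (5.88%, near the 4.21% of all tested genes). They were *Cat*, catalase, higher in caPI3K MI by 0.32 (SE 0.09), and *Gabarapl1*, an autophagy gene, at -0.36 (SE 0.1). The list's median was 0.04. The muscle ubiquitin ligases *Fbxo32* and *Trim63*, textbook FoxO targets, differed by 0.20 (SE 0.15) and 0.04 (SE 0.11) and were not called. *Foxo1* and *Foxo3* differed by -0.11 (SE 0.11) and -0.13 (SE 0.15), also uncalled. *Cat* lost its call in 9 of 19 alternative settings and *Gabarapl1* in 10.

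Promoters were searched for the FoxO core motif TGTTTAC, on both strands, in the 250 bases before each gene's start in the RefSeq promoter table of build GRCm38.p6. It was held by 2.84% of the 11820 tested genes with a promoter listed and by 3.54% of all 27025 genes listed. Among called genes it was in 8 of 348 higher in caPI3K MI (2.3%) and 2 of 140 higher in dnPI3K MI (1.43%). The stretches below come from *Pde1c*, the largest dnPI3K MI gene with a match, and *Mrpl44*, a mitochondrial ribosomal gene higher in caPI3K MI; both are written along the gene's own strand, 5′ to 3′, with the match in capitals.
Pde1c, chr6:56369660-56369759, minus strand: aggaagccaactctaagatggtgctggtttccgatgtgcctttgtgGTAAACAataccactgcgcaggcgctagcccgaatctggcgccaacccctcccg
Mrpl44, chr1:79775768-79775867, plus strand: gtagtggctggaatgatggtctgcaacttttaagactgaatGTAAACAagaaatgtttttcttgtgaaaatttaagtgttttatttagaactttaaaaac
The match is the reverse complement GTAAACA in both, beginning at position -79 from the *Pde1c* start and -209 from the *Mrpl44* start. A match is a description of these letters and not a binding site.

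Genes of mitochondrial fatty acid oxidation, the main fuel pathway of the adult heart, were higher in caPI3K MI hearts. Of 31 tested members 14 were called higher in caPI3K MI and 1 higher in dnPI3K MI, and 26 differences were above 0, with a median of 0.32; 48.4% of the list was called, beside 4.21% of all tested genes. The range over leaving out any array was 6 to 13 called higher, with medians of 0.26 to 0.36. The count of 6 came without caPI3K MI replicate 2, and without dnPI3K MI replicate 4 the count was 8. The exception was *Acad12*, an acyl-CoA dehydrogenase family member, at -0.72 (SE 0.13).

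*Slc25a20*, the carnitine-acylcarnitine carrier that brings fatty acids into mitochondria, had the smallest p of this list. It read 12.53, 12.53, 12.5 and 12.49 in caPI3K MI and 11.71, 11.95, 12.12 and 11.82 in dnPI3K MI hearts. The caPI3K MI arrays were nearly level and all above the dnPI3K MI arrays. The difference was 0.61 (SE 0.09, 1.53-fold, limma adjusted p = 0.000174). *Acad11*, a dehydrogenase of long acyl chains, differed by 0.64 (SE 0.11), and *Ech1*, an isomerase for unsaturated fatty acids, by 0.64 (SE 0.12). *Acadm*, the medium-chain dehydrogenase, differed by 0.32 (SE 0.09) and lost its call in 8 of 19 alternative settings. *Cpt2*, which returns fatty acids from carnitine to coenzyme A, differed by 0.65 (SE 0.12) in the probe set used but by -0.55 in its other kept probe set.

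Of 28 tested fatty acid uptake and storage genes 3 were called, all higher in caPI3K MI: *Lpin1*, a phosphatase of triglyceride synthesis, at 0.67 (SE 0.11), *Plin5*, a lipid droplet coat protein, at 0.55 (SE 0.15) and *Gpam*, the initial acyltransferase of glycerolipid synthesis, at 0.57 (SE 0.17). The list's median was 0.09, and *Gpam* lost its call in 12 of 19 alternative settings. Whether this share differs from that of the oxidation genes was not tested.

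Of 21 PGC-1, PPAR and ERR regulators 2 were called (9.52%, beside 4.21% of all tested genes), *Rxrg*, a retinoid receptor, at 0.64 (SE 0.13) and *Tfam*, the packaging factor of mitochondrial DNA, at 0.34 (SE 0.07). *Ppargc1a*, the coactivator PGC-1 alpha, read 10.37, 10.87, 10.42 and 10.43 in caPI3K MI and 11.53, 11.59, 11.08 and 10.52 in dnPI3K MI hearts. It was lower in caPI3K MI with some overlap, and its difference of -0.66 (SE 0.19) was not called (limma adjusted p = 0.0536). It was called in 4 of 19 alternative settings. *Ppara*, the fatty acid receptor, differed by 0.26 (SE 0.14), uncalled.

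Mitochondrial ribosomal proteins, which translate the genes of mitochondrial DNA, were higher in caPI3K MI where called. Of 73 tested 22 were called, all higher in caPI3K MI, and 66 differences were above 0, with a median of 0.20. Leaving out any array gave 13 to 23 calls, with 13 without caPI3K MI replicate 2 and 14 without dnPI3K MI replicate 3. *Mrps6*, of the small subunit, read 11.92, 11.86, 11.87 and 11.74 in caPI3K MI and 11.14, 11.18, 11.08 and 11.29 in dnPI3K MI hearts. The groups were apart, with a difference of 0.67 (SE 0.07, 1.59-fold, limma adjusted p = 6.13e-07). *Mrpl28*, *Mrpl22* and *Mrpl44*, of the large subunit, differed by 0.55 (SE 0.07), 0.46 (SE 0.07) and 0.41 (SE 0.06). Of 41 cytosolic ribosomal proteins 0 were called by limma in this comparison, with a median of -0.03.

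The ETS core motif CCGGAAGT, which factors such as GABPA bind in many promoters of mitochondrial genes, was searched for after these values were seen. It was in 5.64% of promoters of tested genes, in 10 of 64 tested mitochondrial ribosomal genes with a promoter (15.6%) and in 2 of the 21 called ones (9.52%). The stretches of these 2 genes, with the match in capitals, were taken from the same table and build.
Mrpl27, chr11:94653690-94653789, plus strand: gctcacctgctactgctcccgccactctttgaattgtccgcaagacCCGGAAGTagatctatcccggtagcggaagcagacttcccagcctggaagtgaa
Mrpl18, chr17:12916242-12916341, minus strand: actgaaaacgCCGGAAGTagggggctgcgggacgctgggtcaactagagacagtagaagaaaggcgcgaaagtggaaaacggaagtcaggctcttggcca
*Mrpl27* and *Mrpl18* differed by 0.25 (SE 0.07) and 0.32 (SE 0.07), and the matches began at positions -55 and -240 from their starts. *Mrpl27* lost its call in 9 of 19 alternative settings.

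Of 74 tested genes of the respiratory chain and ATP synthase 3 were called (4.05%, about the share of all tested genes), all higher in caPI3K MI: *Ndufs4* at 0.33 (SE 0.08) and *Ndufv3* at 0.37 (SE 0.11), both of complex I, and *Uqcrc1* of complex III at 0.35 (SE 0.09). Differences were above 0 for 70 of the 74, with a median of 0.10. The called count was 10 after quantile normalization and 11 with arrays centred on their medians. *Ndufv3* lost its call in 12 of 19 alternative settings. In the citric acid cycle 2 of 19 were called, *Suclg2* at 0.37 (SE 0.09) and *Suclg1* at 0.27 (SE 0.07), the subunits of succinyl-CoA synthetase, with a median of 0.09 and 0 called without caPI3K MI replicate 2.

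**Figure D3:**
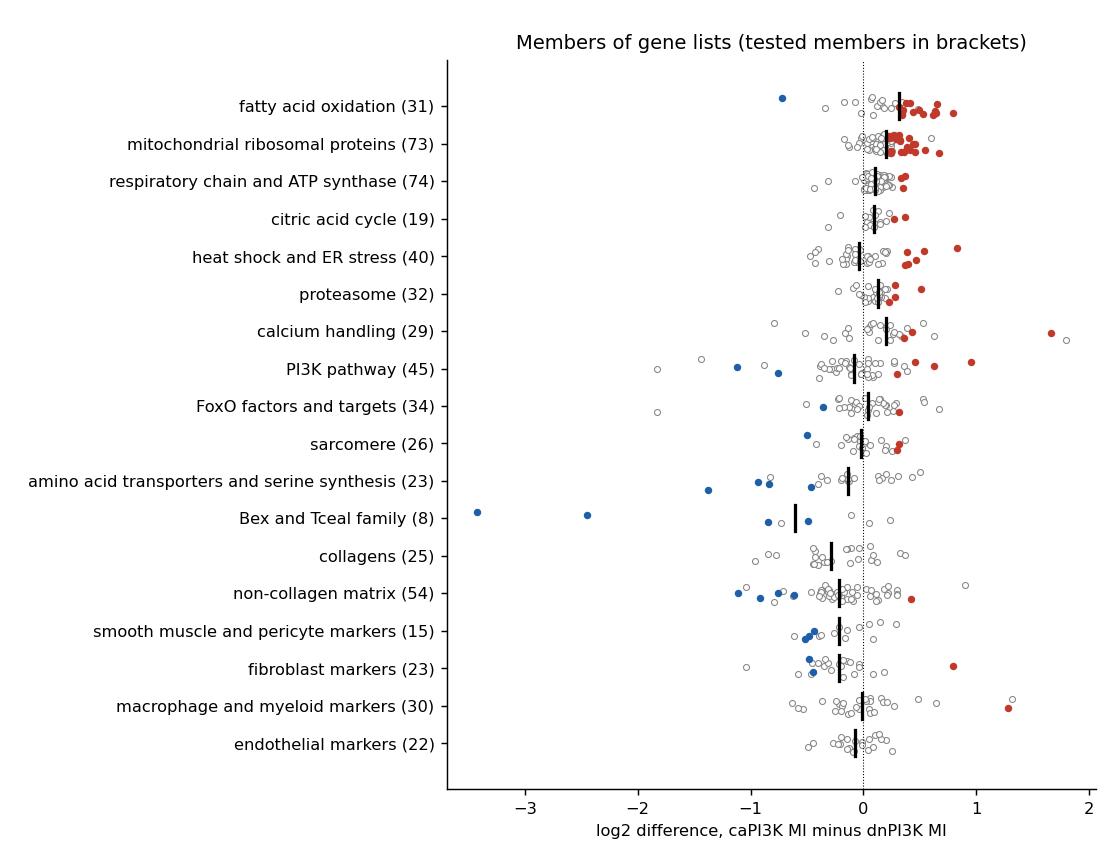
Each point is a tested member of the gene list named on the vertical axis, placed by its log2 difference, caPI3K MI minus dnPI3K MI (horizontal axis), in red where called higher in caPI3K MI, in blue where called higher in dnPI3K MI and open where not called; black bars mark medians. The medians of fatty acid oxidation (0.32) and mitochondrial ribosomal proteins (0.20) lie right of 0 and those of collagens (-0.29) and the Bex and Tceal family (-0.61) left of it.

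Calls in sugar metabolism went in both directions. Of 40 genes of glucose uptake and glycolysis 2 were called higher in caPI3K MI and 3 higher in dnPI3K MI, with a median of 0.09. These calls were 12.5% of the list, beside 4.21% of all tested genes. Higher in dnPI3K MI were *Slc2a1*, the insulin-independent glucose transporter, at -0.59 (SE 0.12), *Hk1*, a hexokinase, at -0.36 (SE 0.08) and *Pygl*, the liver-type glycogen phosphorylase, at -0.82 (SE 0.14). Higher in caPI3K MI were *Ppp1r3d*, a glycogen-targeting phosphatase subunit, at 0.63 (SE 0.13) and *Pfkm*, muscle phosphofructokinase, at 0.31 (SE 0.08). With arrays centred on their medians *Slc2a1* and *Hk1* lost their calls, and *Pfkm* lost its call in 7 of 19 alternative settings. *Slc2a4*, the insulin-responsive transporter, differed by 0.17 (SE 0.1), and *Pdk4*, the kinase that shuts off pyruvate oxidation, by 0.54 (SE 0.41), both uncalled.

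Amino acid carriers were higher in dnPI3K MI hearts where they were called. Of 23 amino acid transporters and serine synthesis genes 4 were called, all in that direction, with a median of -0.14 that moved to 0.00 with arrays centred on their medians. *Slc38a1* and *Slc38a2*, which carry neutral amino acids such as glutamine, differed by -1.38 (SE 0.22) and -0.84 (SE 0.17). *Slc7a1*, the carrier of arginine and lysine, differed by -0.93 (SE 0.16). *Slc6a6*, the taurine transporter, differed by -0.47 (SE 0.12) and lost its call in 9 of 19 alternative settings.

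Among protein quality genes, chaperones with calls were higher in caPI3K MI. Of 40 heat shock and ER stress genes 6 were called in that direction and 0 in the other, while the list's median was -0.03. *Hsph1*, a cytosolic co-chaperone, differed by 0.83 (SE 0.18), *Hspb8* and *Hspb2*, small heat shock proteins of muscle, by 0.53 (SE 0.1) and 0.39 (SE 0.07), and *Hspe1*, the mitochondrial co-chaperonin, by 0.40 (SE 0.09). Of 32 proteasome subunits 4 were called higher in caPI3K MI, with a median of 0.13. *Psmb7*, a catalytic subunit, read 14.02, 14.13, 13.95 and 14.02 in caPI3K MI and 13.69, 13.44, 13.34 and 13.62 in dnPI3K MI hearts. The groups were apart, with a difference of 0.51 (SE 0.08). Ntg MI and sham arrays of both transgenic lines were at 13.9 to 14.24 for this gene, so the dnPI3K MI arrays alone among these groups were lower. The other called subunits, *Psmd8*, *Psmb3* and *Psma1*, lost their calls in 6, 8 and 12 of 19 alternative settings. The other kept probe sets of *Psma1* differed by 0 and -0.22.

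Antioxidant genes gave 4 calls of 41 (9.76%, beside 4.21% of all tested genes). *Gsta4*, a glutathione transferase for lipid peroxidation products, was higher in caPI3K MI by 0.78 (SE 0.08, limma adjusted p = 4.3e-07), *Nqo1*, a quinone reductase, by 0.73 (SE 0.15) and *Cat* as given above. *Gpx3*, the secreted glutathione peroxidase, was higher in dnPI3K MI, at -0.43 (SE 0.1). The list's median was 0.04.

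*Myh6* and *Myh7*, the adult and fetal myosin heavy chains of the mouse heart, differed by -0.08 (SE 0.09) and -0.42 (SE 0.34), and *Acta1*, skeletal actin, by 0.04 (SE 0.17), all uncalled. *Myh6* reached signals of 57500 in caPI3K MI and 60400 in dnPI3K MI, near the highest signals of these 8 arrays (55825 to 69829), so a difference of *Myh6* may be understated. Of 26 sarcomere genes 3 were called: *Ckmt2*, mitochondrial creatine kinase, at 0.32 (SE 0.08), *Ldb3*, a Z-disc protein, at 0.30 (SE 0.08) and *Myom2*, an M-band protein, at -0.50 (SE 0.13). Both other kept probe sets of *Ldb3* differed by -0.01 and -0.02, and with all averaged its difference was 0.09, uncalled.

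Of 20 fetal and wall-stress genes 2 were called, *Ccn2* and *Des*, both higher in dnPI3K MI, with a median of -0.08. *Nppa*, atrial natriuretic peptide, read 15.4, 15.45, 15.1 and 15.4 in caPI3K MI and 15.8, 15.69, 15.88 and 15.84 in dnPI3K MI hearts. The arrays did not overlap, and its difference of -0.47 (SE 0.27) was not called (limma adjusted p = 0.425). The highest level of *Nppa*, 15.88, equals that of *Myh6* on these 8 arrays, so the *Nppa* difference may be understated too. With the 8 arrays fitted alone it was called (0.00979). *Nppb*, brain natriuretic peptide, differed by -0.28 (SE 0.11) and *Ankrd1*, a stretch-responsive gene, by -0.08 (SE 0.1), both uncalled. *Ankrd1*, at means of 15.54 in caPI3K MI and 15.62 in dnPI3K MI, was nearly as bright and has the same limit. *Nppb*, at 15.12 and 15.4 in the same order, may share it. *Npr3*, the clearance receptor of natriuretic peptides, was called higher in dnPI3K MI, at -0.55 (SE 0.15), and lost its call in 10 of 19 alternative settings.

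In excitation and calcium handling the called genes were higher in caPI3K MI. Of 29 calcium genes 3 were called, *Casq1*, *Trdn* at 0.43 (SE 0.11) and *Hrc* at 0.36 (SE 0.1), all proteins of the sarcoplasmic reticulum, with a median of 0.20. *Atp2a2*, the calcium pump SERCA, and *Pln*, its inhibitor phospholamban, differed by 0.05 (SE 0.08) and 0.07 (SE 0.08), uncalled. *Pln*, at means of 15.65 in caPI3K MI and 15.58 in dnPI3K MI, was also near the highest signals. *Atp2a2*, at 15.47 and 15.41 in the same order, was nearly as bright, so both differences may be understated. Of 24 potassium and sodium channel genes 3 were called: *Scn4b*, *Kcnj3*, an inward rectifier of atrial muscle, at 0.73 (SE 0.19), and *Kcnd2*, the pore of a transient outward current, at 0.89 (SE 0.16). *Kcnd2* read 9.66, 10.05, 9.97 and 9.67 in caPI3K MI and 8.84, 8.92, 9.02 and 9.02 in dnPI3K MI hearts, fully apart. Its partner *Kcnip2* differed by -0.27 (SE 0.12), uncalled.

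Of 14 receptors and ligands of adrenergic, angiotensin and endothelin signalling 1 was called. *Adra1b*, an alpha-1 adrenergic receptor, read 8.18, 7.41, 7.8 and 7.65 in caPI3K MI and 5.77, 5.1, 5.85 and 6.65 in dnPI3K MI hearts. The groups did not overlap, and the difference was 1.92 (SE 0.35, 3.78-fold, limma adjusted p = 0.0011). *Hopx*, a cofactor of heart muscle transcription, was the only call among 28 cardiac transcription factors (3.57%, beside 4.21% of all tested genes), at 0.65 (SE 0.12). *Ctf1*, the cytokine cardiotrophin, was the only call among 15 growth ligands (6.67%), at 0.95 (SE 0.16). *Thrsp*, already named, was the only call among 5 thyroid hormone genes.

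Collagens did not pass the test in these whole hearts. Of 25 tested 0 were called, 6 differences were above 0, and the median was -0.29. It ranged from -0.35 to -0.18 over leaving out any array and was -0.15 with arrays centred on their medians. *Col1a1* read 10.08, 10.3, 10.42 and 10.86 in caPI3K MI and 10.68, 10.59, 10.0 and 10.53 in dnPI3K MI hearts, with full overlap. *Col3a1* differed by -0.35 (SE 0.25) and *Postn*, a matrix protein of scars, by -0.20 (SE 0.31), both uncalled.

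Some matrix genes were higher in dnPI3K MI. Of 54 genes of the non-collagen matrix 4 were called in that direction and 1 in the other, with a median of -0.22. These calls were 9.26% of the list, beside 4.21% of all tested genes. *Ccn2*, connective tissue growth factor, read 14.09, 14.24, 14.06 and 13.84 in dnPI3K MI and 13.46, 13.35, 13.31 and 13.08 in caPI3K MI hearts. The groups were apart, and the difference was -0.76 (SE 0.13, 1.69-fold, limma adjusted p = 0.000821). *Comp*, a collagen-binding matrix protein, read 12.01, 11.83, 12.27 and 12.89 against 10.84, 11.17, 11.26 and 11.31 in the same order, again apart, at -1.11 (SE 0.22, limma adjusted p = 0.00323). *Fmod*, a collagen-binding proteoglycan, differed by -0.62 (SE 0.15) and *Lox*, the collagen crosslinker, by -0.91 (SE 0.25); *Lox* lost its call in 9 of 19 alternative settings. *P4ha2*, a collagen prolyl hydroxylase, was the call in the other direction, at 0.42 (SE 0.12), and was also lost in 9.

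*Tgfb2*, a ligand of the TGF-beta family, was the only call among 33 TGF-beta and BMP genes (3.03%, beside 4.21% of all tested genes). It read 10.65, 11.24, 10.72 and 10.68 in dnPI3K MI and 10.03, 9.83, 10.12 and 9.89 in caPI3K MI hearts. The groups were apart, with a difference of -0.85 (SE 0.19, limma adjusted p = 0.00772). Of 18 Wnt genes and secreted Wnt antagonists 3 were called: *Dkk3* at -1.14 (SE 0.23) and *Frzb* at -0.58 (SE 0.15), higher in dnPI3K MI, and *Wif1* at 0.74 (SE 0.17), higher in caPI3K MI. The *Wif1* difference was 1.3 among arrays whose title ends in a number under 500 and 0.18 among the others. What that number stands for is not stated in the sources used here. Of 24 metalloproteinases and TIMPs limma called 0, with a median of -0.21, and *Timp1* differed by -0.39 (SE 0.29).

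**Figure D4:**
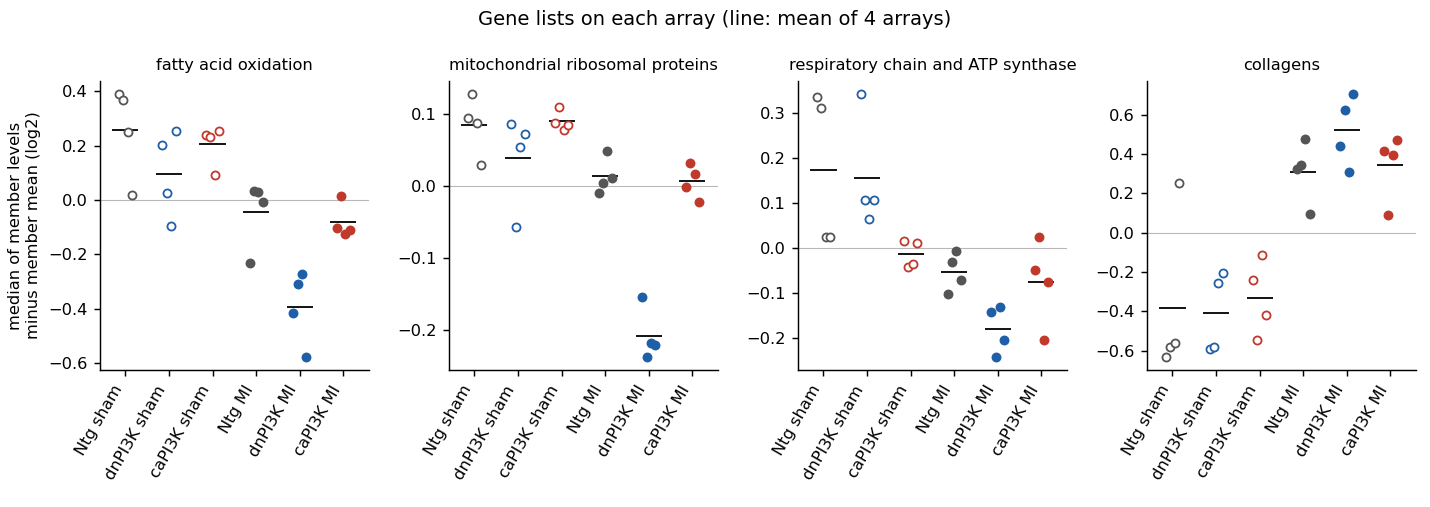
Each point is an array, placed by the median over a list's members of their level minus the member's mean over all 24 arrays (vertical axis, log2), in the 6 groups on the horizontal axis; open circles are sham, filled circles MI, and lines mark the mean of 4 arrays. For fatty acid oxidation the dnPI3K MI arrays lie at -0.58 to -0.27 and the caPI3K MI arrays at -0.12 to 0.02, while for collagens the groups overlap at 0.31 to 0.70 and 0.09 to 0.47.

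Markers of other cell types were set beside these results. Of 23 fibroblast markers 3 were called, *Fap*, a surface protease of activated fibroblasts, higher in caPI3K MI at 0.80 (SE 0.14), and *Tcf21* and *Acta2* higher in dnPI3K MI at -0.45 (SE 0.12) and -0.48 (SE 0.13). Only 3 of the 23 differences were above 0, with a median of -0.22, and the markers' summed signal was 197983 to 239484 on dnPI3K MI and 172978 to 191588 on caPI3K MI arrays. Of 15 smooth muscle and pericyte markers 3 were called, *Tagln* at -0.51 (SE 0.15), *Acta2* and *Des* at -0.44 (SE 0.09), with a summed signal of 59929 to 69972 and 54948 to 57435 in the same order. With arrays centred on their medians 0 of these 15 were called, and with the probe sets of a gene averaged *Acta2* differed by -0.06, uncalled. *Tagln* lost its call in 11 of 19 alternative settings and *Acta2* in 10. The part of these cell types in the matrix results was not tested.

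Epicardial and mesothelial markers gave 3 calls of 15 with a median of -0.36. *Krt18*, an epithelial keratin, differed by -1.42 (SE 0.29), and *Wt1*, a transcription factor of the epicardium, by -0.91 (SE 0.23). *Clu*, clusterin, also on the atrial list, was higher in caPI3K MI at 0.86 (SE 0.09, limma adjusted p = 4.85e-07). The summed signal of the list, 20072 to 20976 on dnPI3K MI and 25918 to 30676 on caPI3K MI arrays, ran against the sign of its median. That sum includes *Clu*, at mean levels of 14.43 in caPI3K MI and 13.56 in dnPI3K MI. A gene this bright weighs far more in the sum than in the median. Atrial markers had 3 calls of 19, *Clu*, *Kcnj3* and *Dkk3*, in both directions. Of their differences 13 were above 0 and 6 below, with a median of 0.24, and of 0.315 after sham. Against Ntg MI 4 were called lower in dnPI3K MI in limma, with a median of -0.26. The part of atrial tissue in these differences was not tested.

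Of 30 macrophage and myeloid markers 1 was called (3.33%, beside 4.21% of all tested genes), *Retnla*, a product of alternatively activated macrophages. It read 9.57, 8.99, 10.26 and 9.09 in caPI3K MI and 8.76, 8.79, 7.58 and 7.66 in dnPI3K MI hearts, without overlap, a difference of 1.28 (SE 0.33, limma adjusted p = 0.0242). The list's median was -0.02 and its summed signal overlapped between groups, at 59623 to 78997 and 61543 to 89963. Limma called 0 of 22 endothelial, 13 lymphocyte, 9 MHC class II, 32 interferon response, 10 adipocyte, 7 blood cell and 10 nerve and Schwann cell genes; in lists this short, the share called over all genes gives few calls or none. *Vegfa*, the main vessel growth factor, differed by 0.11 (SE 0.11). *Il15*, a cytokine made by muscle, was the only call among 35 chemokine, cytokine and complement genes (2.86%), at 0.84 (SE 0.17). *Tfpi*, an inhibitor of tissue factor, at -1.02 (SE 0.14), and *Ccnd2*, a G1 cyclin, at -0.72 (SE 0.11), were the only calls of the coagulation and cell division lists (5.56% and 3.45%).

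The same genotypes without an infarct came from other arrays. After sham, 1459 genes (9.88%) were called between caPI3K and dnPI3K hearts. Without the 3 caPI3K sham arrays with Y-linked signal only caPI3K sham replicate 4 is left of that group. For that fit only differences are given, since a call there would rest on that array. Of the 430 genes higher in caPI3K MI, 242 (56.3%) were also called higher in caPI3K after sham, which is 30.5% of the 794 (5.38%) called there in that direction. Of the 191 higher in dnPI3K MI, 108 (56.5%) were also called higher in dnPI3K after sham, 16.2% of 665 (4.5%). The median sham differences of the 430 and the 191 genes were 0.37 and -0.45, and 0.38 and -0.58 without the 3 arrays. The sham difference had the sign of the MI difference for 397 (92.3%) and 174 (91.1%) of the called genes, and for 389 and 178 without the 3 arrays. Of all tested genes, 49.8% had a sham difference above 0 and 50.2% below 0, whatever the sign of their MI difference. The share of all genes with agreeing signs was not counted. Over the called genes the MI and sham differences correlated across genes at r = 0.784 (n = 621), and over all 14763 genes at 0.286; genes are not independent replicates and no p is given.

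**Figure D5:**
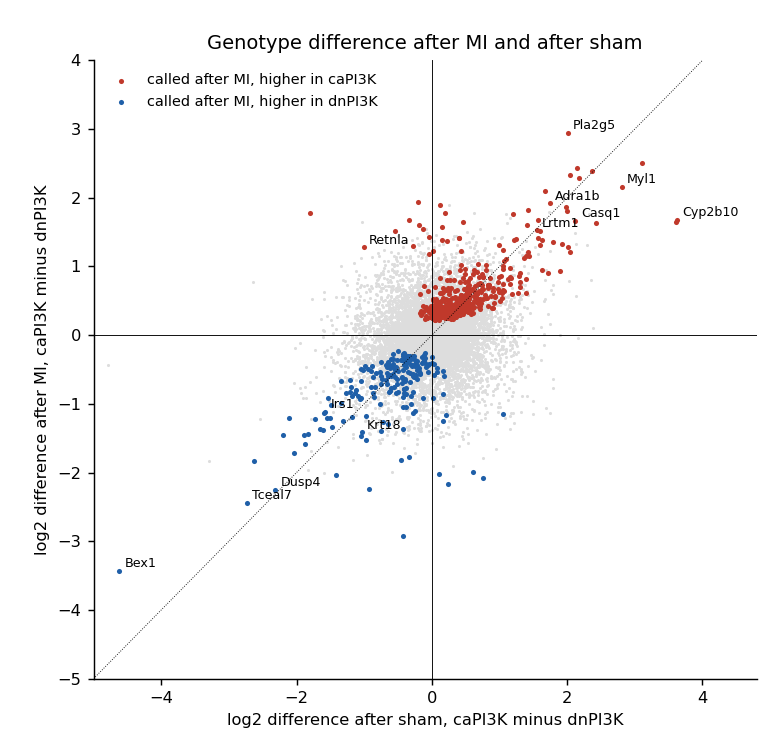
Each point is a gene, placed by its caPI3K minus dnPI3K log2 difference after sham (horizontal axis) and after MI (vertical axis); red and blue points are the 430 and 191 genes called after MI, grey points the rest, and the dotted line marks equal differences. *Bex1*, *Tceal7* and *Dusp4* lie at the lower left and *Myl1* and *Pla2g5* at the upper right, while *Retnla* is above 0 after MI and below 0 after sham.

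Several of the largest differences were also called after sham. *Bex1* differed by -4.62 after sham, *Tceal7* by -2.74, *Dusp4* by -2.32, *Irs1* by -1.57, *Myl1* by 2.81 and *Casq1* by 2.12, all called there. Fatty acid oxidation genes after sham had 4 of 31 called higher in caPI3K, 4 higher in dnPI3K and a median of 0.14. Without the 3 arrays with Y-linked signal the median was also 0.14. For mitochondrial ribosomal proteins the sham counts were 12 and 4 of 73, with a median of 0.05, and of 0.06 without the 3 arrays. Among other lists, the respiratory chain had a median of opposite sign after sham. Cytosolic ribosomal proteins had a median of the same sign, farther from 0. Of 74 genes of the respiratory chain 8 were called higher in dnPI3K and 0 higher in caPI3K after sham, with a median of -0.15, against 0.10 after MI. Of 41 cytosolic ribosomal proteins 30 were called higher in dnPI3K after sham, with a median of -0.33. After MI 0 of them were called, with a median of -0.03. Without the 3 arrays the sham medians of these lists were -0.15 and -0.31. *Psmb7* differed by 0.02 after sham, *Hopx* by -0.05, *Comp* by -0.25 and *Tgfb2* by 0.16, none of them called there.

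Whether a difference changed with the operation was tested directly. The test of the MI difference against the sham difference called 0 of 14763 genes in limma, with 1504 (10.2%) at an unadjusted p below 0.05. At that unadjusted level were 46 of 74 genes of the respiratory chain and 30 of 41 cytosolic ribosomal proteins. These counts rest on all caPI3K sham arrays, including the 3 with Y-linked signal. They may not hold without those 3, where only caPI3K sham replicate 4 is left of that group. The smallest adjusted p was 0.0733, shared by a set of genes that included *Retnla*, whose difference was 1.28 after MI and -1.01 after sham. No gene above was therefore shown to differ more after MI than after sham. The lists as such were not tested for this. For *Psmb7* the adjusted p of this test was 0.101, for *Hopx* 0.149, for *Tgfb2* 0.176 and for *Nppa* 0.181.

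Ntg MI hearts were set beside both lines. caPI3K MI against Ntg MI gave 0 called genes in limma, with 682 (4.62%) at an unadjusted p below 0.05. dnPI3K MI against Ntg MI gave 381 (2.58%), of which 96 were higher and 285 (1.93%) lower in dnPI3K MI. These comparisons share the Ntg MI arrays and their values only stand side by side. Of the 430 genes higher in caPI3K MI the Ntg MI mean lay between the groups for 337 and was nearer to caPI3K MI for 398. Of the 191 higher in dnPI3K MI it lay between for 173 and was nearer to caPI3K MI for 136.

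For fatty acid oxidation the median was -0.03 for caPI3K MI against Ntg MI, with 0 of 31 called, and -0.33 for dnPI3K MI against Ntg MI, with 14 called lower. For mitochondrial ribosomal proteins these medians were -0.02 and -0.23, with 0 and 18 of 73 called. *Bex1* differed from Ntg MI in both directions, by -1.57 in caPI3K MI and 1.86 in dnPI3K MI, and *Irs1* by -0.55 and 0.57, with the dnPI3K MI values alone called. *Slc25a20* differed by 0.17 and -0.45 and *Mrps6* by 0.09 and -0.58, in the same order. *Pde1c* differed by -1.06 in caPI3K MI and 0.40 in dnPI3K MI, neither called.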

How the data were processed

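The values are signal intensities from Affymetrix arrays as the authors deposited them, attributed to MAS5 in the submitters' processing notes (version and scaling target not given in the sources used here). A trimmed mean signal of 500 is shared by the 24 arrays, so no further scaling was applied. Probe sets above the 40th percentile of their array on at least 4 arrays were kept, and the one with the highest mean stood for each gene, named from the platform annotation (14763 genes). Of 45101 probe sets, 932 naming several genes and 9160 naming none were left out of the main fit. A model with a mean for each of 6 groups, on log2 intensity, was fitted in limma 3.58.1 (R 4.3.3) with an intensity trend and 18 residual degrees of freedom. Simulated data had 14763 genes with independent normal noise, in 5 runs. The share called in this comparison was 29.9% of 335 genes shifted by 0.5 log2, 63% of 335 shifted by 1 and 82.4% of 330 shifted by 2. Few genes were shifted there, while 16.1% had an unadjusted limma p below 0.05 in the data. These shares may therefore not hold for the data. Promoters were those of RefSeq.

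Members and the 51 gene lists were chosen with earlier results of these data known. Lists are described by counts and medians, without a test. Named genes are 37 chosen ones, the 12 largest calls in each direction without overlap and with the higher group at or above the median level, and the 4 smallest p in each list; *Acad12*, *Grb10*, *Igfbp5*, *P4ha2*, *Pfkm*, *Mrpl27* and *Mrpl18* were added after their values were seen. The number of arrays limits precision. Alternatives covered the pseudocount, scaling, filter, probe set, trend, array weights, the number in the array title (under 500 or not) and each array left out.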

Additional observations from a re-analysis of the deposited data

Results flagged for a closer look

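In 294 sets of 4 values, 1 array stood apart from the other 3 in 16, by a gap above Dixon's critical value for 4 values; chance alone gives about 1 in 20. The gap is given as a share of the range. dnPI3K MI replicate 1 had a median signal of 150 against 109 to 115 (0.856), and was high for *Amy1* (0.844) and *Per3* (0.837) and low for *Slc6a6* (0.935). dnPI3K MI replicate 4 was high for *Fmod* (0.976), *Igfbp5* (0.862) and *Timp1* (0.842) and low for *Slc7a1* (0.8294). dnPI3K MI replicate 2 was high for *Tgfb2* (0.881) and replicate 3 for *Foxo3* (0.878). caPI3K MI replicate 2 was high for *Eif4e* (0.919) and *Ppargc1a* (0.887) and low for *Frzb* (0.846). caPI3K MI replicate 3 was high for *Gpam* (0.901) and low for *Nppa* (0.852), and replicate 4 was high for *Npr3* (0.83).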

How the results depend on the processing

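The count of 621 ranged from 441 without the intensity trend to 786 with arrays centred on their medians, and from 388 to 573 when an array was left out. Of the called genes 370 were shared with the fit without caPI3K MI replicate 2 (388 called) and 505 with the centred fit. Array weights, which gave dnPI3K MI replicate 1 a weight of 0.38, called 750. Of 110 called genes named here, 57 kept their call in all 19 settings, 52 lost it in at least 1, and *Tac1* turned to 0.06 (adjusted p = 0.941) with probe sets averaged. Calls of *Tcf21* were lost in 8 settings, of *Plin5*, *Tceal9*, *Ldb3* and *Pfkm* in 7, and of *Hrc*, *Kcnj3*, *Frzb* and *Myom2* in 6. Sham calls were 861 with centred arrays, 232 without the arrays with Y-linked signal and 983 to 1317 without any 1 array. The test of MI against sham called 7 with centred arrays, 44 with array weights and 0 to 4 without any 1 array. caPI3K MI against Ntg MI called 7 with array weights, 3 with a term for the number in the title and 0 to 2 without any 1 array. dnPI3K MI against Ntg MI called 793 with centred arrays, 243 without the trend and 217 to 491 without any 1 array. The causes were not tested. No paired analysis was made, because the groups share no number in their titles.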

Other observations

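Of 5934 probe sets without 1 gene name, tested apart, 27 were called between caPI3K MI and dnPI3K MI, 20 higher in caPI3K MI and 7 higher in dnPI3K MI. They are not named here. *Plet1* and *Kif5c*, chosen after their values were seen, were called in opposite directions after MI and after sham. *Plet1* differed by 1.78 after MI and -1.80 after sham, and *Kif5c* by -1.15 and 1.05. The test of MI against sham gave an adjusted p of 0.0733 for both in limma, so neither passed.

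Of 18 circadian clock genes *Per3* was the only call (5.56%, beside 4.21% of all tested genes), higher in dnPI3K MI at -0.70 (SE 0.15). The labels do not state at what time of day hearts were taken.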
